A study of Mus musculus with 2 samples.

Results

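The genes described here encode the mitochondrial respiratory chain and ATP synthase, complexes I to V, with 6 assembly factors that share their symbols. They were taken as every symbol listed in both deposited count tables that starts with Nduf, Uqcr, Cox4 to Cox8, Atp5, Sdha to Sdhd or mt-, which gave 99 of 9127 shared symbols. Of these, 86 are encoded in the nucleus and 13 by the mitochondrial genome. The nuclear members comprise 36 of complex I, 4 of complex II, 8 of complex III, 17 of complex IV (here with Ndufa4 and Ndufa4l2), 15 of complex V and the 6 assembly factors, and the mt- members comprise 7 of complex I, 1 of complex III, 3 of complex IV and 2 of complex V. Ndufaf6 was listed only in the WT table and Ndufaf1 only in the knockout table, and both were left out.

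The study profiled dissociated mouse tumours (strain C57BL/6) by droplet single-cell RNA sequencing of 3′ ends, with 1 library per genotype, each pooled from 4 mice. The WT library was compared with a Cdh-cre Myct1 fl/fl library (Cdh5-cre in the series title), called the Myct1 knockout here. The Cdh5 promoter drives Cre in endothelial cells, so deletion of the floxed gene is aimed at endothelium. Whether the WT mice carried Cre, the age of the mice, the tumour line and the floxed exons are not stated in the labels. Since each genotype has 1 library, genotype, library and pool of mice cannot be told apart, and no test between genotypes was possible. Intervals below are exact 95% intervals for the counting of UMIs (unique molecular identifiers, each marking 1 captured RNA molecule) and leave out the variation between mice and between libraries.

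As background, the respiratory chain passes electrons from NADH at complex I and from succinate at complex II through ubiquinone, complex III and cytochrome c to oxygen at complex IV, and the proton gradient so built drives ATP synthesis by complex V. Complexes I, III, IV and V join subunits from both genomes, whereas complex II is wholly nuclear. Endothelial cells are known to draw much of their ATP from glycolysis, and some subunits have tissue-restricted isoforms, among them Ndufa4l2 and Cox4i2 in pericytes.

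The WT table held 10880 barcodes and 115519153 UMIs (median 8726 per barcode) and that of the knockout 10700 barcodes and 145331950 UMIs (median 12921). Barcodes with under 200 detected genes, with over 10% mt- UMIs or with a doublet score above 0.3 were set aside, which left 7858 and 7845 cells, and 218 barcode sequences occurred in both tables. Cells were then sorted into 4 classes by marker genes: 545 WT and 300 knockout endothelial cells, 98 and 21 mural cells, 2813 and 145 fibroblasts, and 3152 and 5928 cells positive for Krt8 and Krt18, called keratin-positive cells here. Both libraries are labelled as endothelial cells, yet endothelial cells made up 6.94% and 3.82% of the cells kept. Cdh5, the endothelial cadherin, stood at 1686 and 1049 CPM (UMIs of a gene scaled to a common total per class and library) in WT and knockout endothelial cells. It stood at no more than 1.39 in any other class, but Cdh5 was itself a sorting marker, so this contrast follows in part from the sorting. Other endothelial sorting markers separated less: Esam was at 961 and 883 in endothelial and 311 and 241 in mural cells, and Eng at 747 and 470 against 151 and 102. Myct1 itself was listed only in the WT table, with 963 UMIs, a level of 242 CPM, in WT endothelial cells and a UMI in 72.8% of them. Every gene listed in either table has at least 4 UMIs in some barcode, so a gene not listed can still have up to 3 UMIs in any 1 barcode.

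Nuclear-encoded members took a larger share of UMIs in the knockout library in all 4 classes, while the share of the mt- members was lower in endothelial and keratin-positive cells, higher in fibroblasts and not distinguishable by counting error in mural cells. In endothelial cells the nuclear members held 1.92% of UMIs in the WT library and 2.52% in the knockout library, and the per-cell medians were 1.89% and 2.5%. The lower quartile of knockout endothelial cells (2.12%) lay close to the upper quartile of WT endothelial cells (2.12%). The same share was 2.3% and 3.02% in mural cells, which rest on only 21 knockout cells. In fibroblasts it was 1.36% and 2.09%, and in keratin-positive cells 1.88% and 2.25%. The mt- members held more UMIs than the nuclear members in every class and library, at 4.9% and 4.42% in endothelial cells, 4.53% and 4.59% in mural cells, 2.82% and 3.19% in fibroblasts and 4.54% and 4.28% in keratin-positive cells. In mural cells the summed mt- ratio was 0.02 (-0.02 to 0.06), and the per-cell medians ran the other way, at 4.53% and 4.43%. From cell to cell the nuclear share, taken over UMIs of other than mt- genes, and the mt- share hardly ran together in endothelial cells (rank correlation -0.02 over the 545 WT and -0.01 over the 300 knockout cells, which share a library and differ in depth). In fibroblasts the same correlation was 0.20 over 2813 WT and 0.36 over 145 knockout cells.

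**Figure D1:**
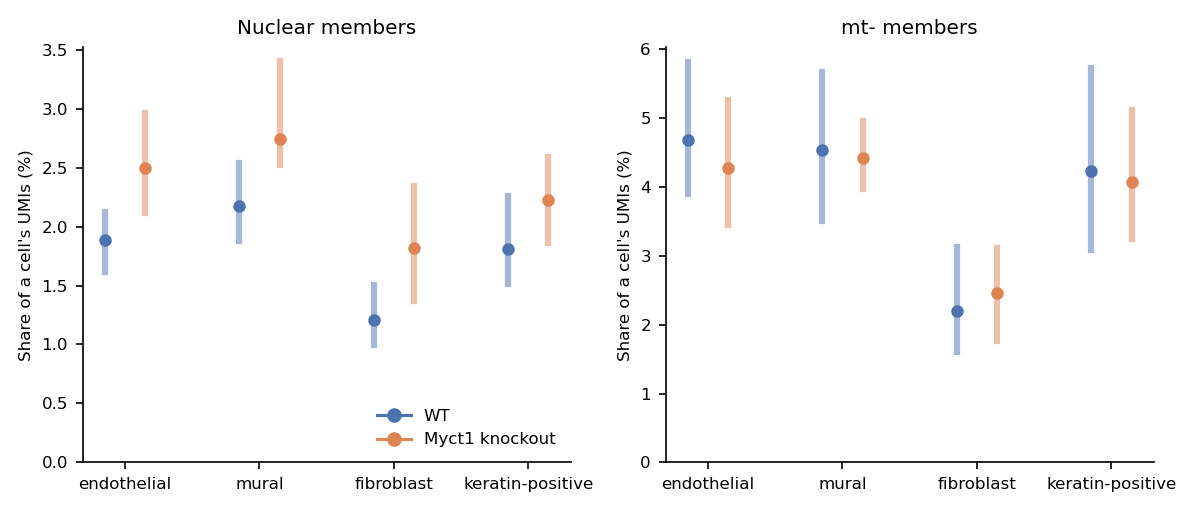
Share of each cell's UMIs held by the 86 nuclear members (left) and the 13 mt- members (right), in percent, for the 4 classes in the WT and the Myct1 knockout library. Points are medians over cells and bars run from the lower to the upper quartile: the nuclear medians were higher in the knockout library in each class, and the mt- quartile ranges of the libraries overlapped.

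Per gene, the log2 ratio of CPM, knockout over WT, was taken for genes with at least 20 UMIs over both libraries, and a gene was called where it differed at least 1.5-fold with an interval that left out 0. Below, pairs of levels are CPM in the WT and then in the knockout library, and ratios are log2 values followed by the bounds of their interval. Among 83 nuclear members tested in endothelial cells, 22 were called higher and 3 lower, with a median of 0.44. Of all 8222 genes tested there, 9.6% were called higher and 35.3% lower, and their median was -0.37. In mural cells 19 of 80 were called higher and 4 lower (6.94% and 15.8% of all genes), with a median of 0.42 against -0.42 over all genes. In fibroblasts 44 of 86 were called higher and 0 lower (14.3% and 17.6% of all genes), with medians of 0.66 and -0.11. In keratin-positive cells 6 of 85 were called higher and 2 lower (5.46% and 18.8% of all genes), with medians of 0.31 and -0.25, so there the count of higher calls lay close to that of all genes. Of 79 nuclear members tested in every class, 60 had a ratio above 0 in all 4 and 4 had one below 0 in all 4 (Atp5a1, Cox4i1, Cox7a2l and Sdha). Those called higher in all 4 classes were Sdhb, Ndufa8, Atp5g1 and Atp5c1. How many of all genes had the same sign or call in all 4 classes was not counted. The classes share 1 pair of libraries, so such agreement cannot be taken as particular to the members. The TMM scaling of edgeR, which centres the bulk of genes, raised every endothelial ratio by 0.36 and gave 57 nuclear members called higher and 1 lower. The endothelial medians were then 0.80 over nuclear members and -0.02 over all genes. The share of all genes called under this scaling was not counted, so the 57 cannot be set against the 9.6%.

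Transcript length moved with these ratios. Nuclear members are short (median 908 bases among those tested in endothelial cells, against 3109 for other genes), and other short genes also had medians above 0. From 600 to under 1000 bases the endothelial median was 0.44 over 29 members and 0.46 over 401 other genes. From 1000 to under 2000 bases it was 0.49 over 25 members and 0.19 over 1611 others, and at 2000 bases or more 0.15 over 12 members and -0.58 over 5696 others. Set against the median of genes of like length, the nuclear median was 0.10 in endothelial cells, 0.03 in mural cells, 0.22 in fibroblasts and 0.03 in keratin-positive cells. In that order 10, 6, 11 and 3 members were then called higher and 4, 4, 3 and 3 lower. The share of all genes called at this adjustment was not counted. At this adjustment the members' intervals had a median lower bound below 0 in every class (-0.07, -0.47, -0.02 and -0.0087 in the order endothelial, mural, fibroblast and keratin). The rank correlation of ratio with length in endothelial cells was -0.54 over 7805 other genes and -0.04 over the 83 members, which share library and depth. The part of length in the members' ratios was not tested further.

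**Figure D2:**
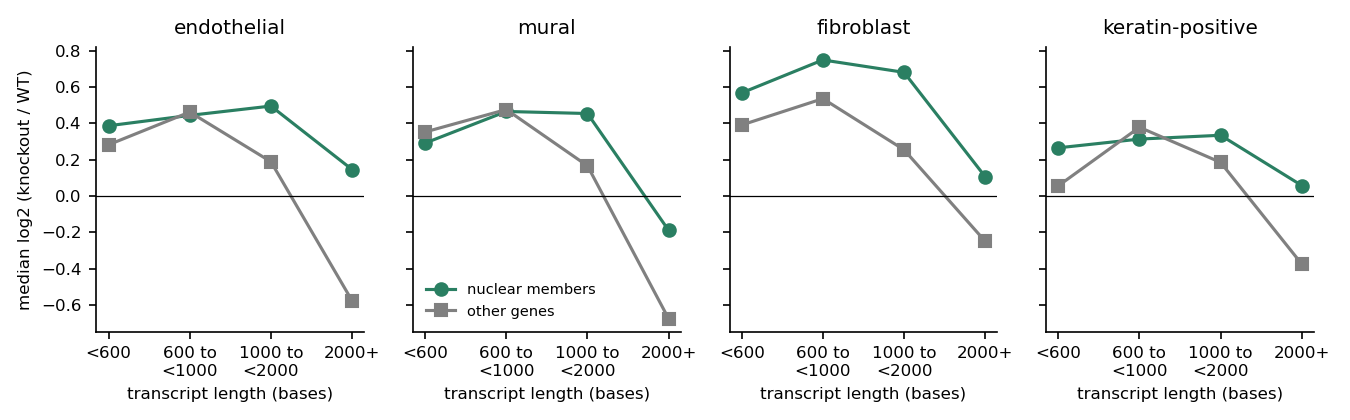
Median log2 ratio (knockout over WT, y axis) of nuclear members and of all other tested genes in 4 bins of transcript length in bases (x axis), for each class. Both lines lie above 0 under 1000 bases, and at 2000 bases or more the other genes lie below 0 in every class. The shortest and the longest bin hold 10 to 19 members each.

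The cells that make up a class also differed between libraries. In a joint clustering of both libraries endothelial cells lay mainly in 2 clusters: cluster 10 held 272 WT and 287 knockout cells, and cluster 13 held 254 WT cells and 1 knockout cell. Within cluster 10 the nuclear share was 1.98% in the WT and 2.54% in the knockout library, a difference like that of the whole class. Cycling cells, those with at least 3 of 16 proliferation markers, made up 12.5% of WT and 27.0% of knockout endothelial cells, and their nuclear share was higher in both libraries (2.14% against 1.86% in WT, 2.75% against 2.38% in knockout). Without cycling cells the endothelial median was 0.40. Knockout fibroblasts came mostly from clusters 9 (54 cells) and 15 (57 cells), whereas 1512 of 2813 WT fibroblasts lay in cluster 2. Within cluster 9 the fibroblast nuclear share was 1.73% and 2.2%, and within cluster 15, of very low depth, 1.66% and 1.66%. With these clusters weighted equally the fibroblast median was 0.14 with 14 members called higher and 4 lower, and the median bounds of the members' intervals were -0.13 and 0.40. These calls and bounds use intervals from counts summed over both clusters, moved to the weighted ratio. They therefore do not allow for the low depth of cluster 15. In keratin-positive cells the nuclear share within cluster 1 was 1.84% in WT and 1.86% in knockout, and within cluster 5 it was 1.64% and 1.99%. Other keratin-positive clusters were held mostly by 1 library. Cluster 0 held 29 WT and 2065 knockout cells (nuclear share 2.45% and 2.49%). Cluster 8 held 33 and 697 (1.90% and 1.86%), and cluster 12 held 238 and 17. Weighting 6 shared clusters equally, which do not include these, gave a median of 0.14 in keratin-positive cells.

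Complex I, the NADH dehydrogenase, had 5 of 36 nuclear members called higher and 1 called lower in endothelial cells (median 0.38), so the share called higher lay near the 9.6% of all genes. In keratin-positive cells the counts were 1 and 0 (median 0.31), against 5.46% and 18.8% of all genes. Ndufab1, the mitochondrial acyl carrier protein that also sits in complex I, was at 139 CPM in the WT and 266 CPM in the knockout library in endothelial cells, a log2 ratio of 0.93 (0.77 to 1.10). The ratio of Ndufab1 in keratin-positive cells was 0.32 (0.28 to 0.35). Ndufa8, an accessory subunit, was at 207 and 327 in endothelial cells and 79.6 and 129 in keratin-positive cells, with ratios of 0.66 (0.51 to 0.80) and 0.69 (0.64 to 0.74). Ndufa8 was thus called higher in both, and it was also at 70.2 and 154 in fibroblasts and 118 and 212 in mural cells.

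Some members of complex I lay on the other side of 0. Ndufs1, the largest core subunit, which carries iron-sulfur clusters, was at 43.8 CPM in the WT and 28.7 CPM in the knockout library in endothelial cells, a ratio of -0.61 (-1.03 to -0.20), and at 43.7 and 33.1 in keratin-positive cells (log2 -0.40, -0.48 to -0.33). Ndufc2, an accessory subunit of the membrane arm, was at 421 and 325 in endothelial cells (log2 -0.37, -0.50 to -0.25) but at 164 and 202 in keratin-positive cells (log2 0.30, 0.27 to 0.34) and 155 and 242 in fibroblasts (log2 0.64, 0.46 to 0.83). Under TMM scaling the endothelial ratios of Ndufs1 and Ndufc2 were -0.25 and -0.02, and neither was called. The ordered ratios of the members are drawn in the plot by complex.

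**Figure D3:**
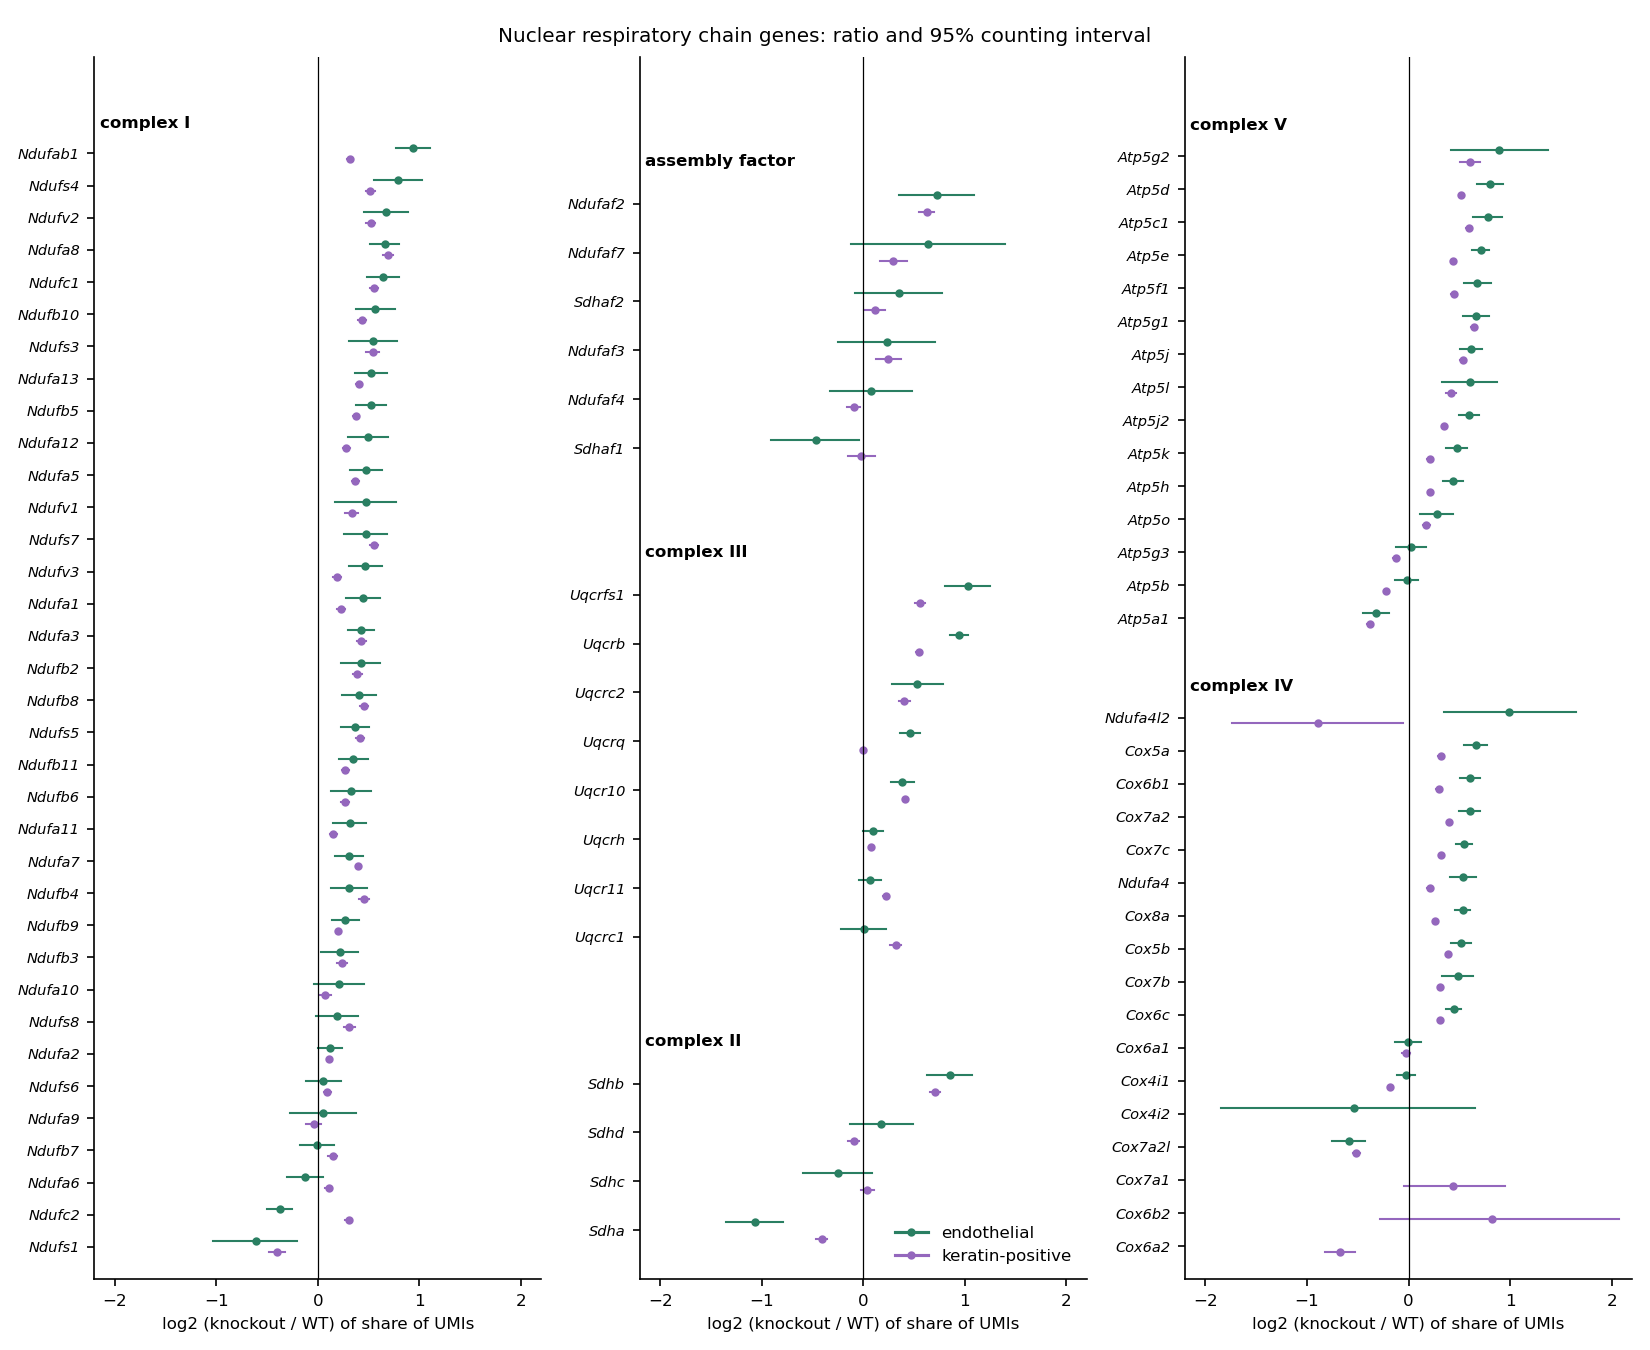
Log2 ratio of CPM, knockout over WT (x axis), for nuclear members with at least 20 UMIs, all but 1, grouped by complex, in endothelial cells (green) and keratin-positive cells (purple). Points are ratios and lines 95% counting intervals. Most points lie right of 0, with Sdha, Cox7a2l, Ndufs1 and Atp5a1 among those left of 0 in both classes.

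Complex II, succinate dehydrogenase, split within itself. Sdhb, the iron-sulfur subunit, was at 80.4 CPM in the WT and 145 CPM in the knockout library in endothelial cells, a ratio of 0.85 (0.63 to 1.07). Its partner Sdha, the flavoprotein that oxidises succinate, was at 119 CPM in the WT and 56.5 CPM in the knockout library, a ratio of -1.07 (-1.35 to -0.79). The WT level was thus higher for Sdha and the knockout level higher for Sdhb, and the pooled values of each of the other classes had the same directions. In mural cells Sdhb was at 78.9 and 168 (log2 1.09, 0.31 to 1.83) and Sdha at 129 and 51.2 (log2 -1.34, -2.70 to -0.23). In fibroblasts Sdhb was at 45.3 and 102 (log2 1.18, 0.88 to 1.46) and Sdha at 106 and 78.2 (log2 -0.44, -0.78 to -0.13). In keratin-positive cells Sdhb was at 81.1 and 133 (log2 0.71, 0.66 to 0.76) and Sdha at 88.6 and 66.8 (log2 -0.41, -0.46 to -0.35). In fibroblasts the direction of Sdha depended on the clusters: it was at 101 and 65.9 in cluster 9 but 101 and 154 in cluster 15. The knockout value of cluster 15 comes from 57 cells with a median of 553 UMIs, so from few UMIs of Sdha. With both clusters weighted equally the log2 ratio was 0.13, and no interval that allows for the weights was taken. Within endothelial cluster 10 alone Sdha was at 120.3 and 55.7. The membrane anchors Sdhc and Sdhd were not called in endothelial cells, at 55 and 46.3 (log2 -0.25, -0.59 to 0.09) and 55 and 62.3 (log2 0.18, -0.13 to 0.49). The Sdha transcript is 2900 bases long and that of Sdhb 1142, and relative to genes of like length the endothelial ratios were -0.70 and 0.44.

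The promoter windows of Sdha and Sdhb are printed because these partners in 1 enzyme lay at opposite ends of the ratios, and that of Uqcrfs1 because it had the highest ratio in endothelial cells. Each window runs from 250 bases before to 50 after the RefSeq start of the gene on GRCm38.p6, read along the gene's strand, and lies upstream of and at the start of its first exon. Capitals mark TGCGCA, the palindromic core of nuclear respiratory factor 1 sites, and CCGGAAG or its reverse complement CTTCCGG, an Ets core of the kind bound by GABPA; both are textbook regulators of respiratory chain genes.
Sdha, chr13:74350191-74350490, minus strand: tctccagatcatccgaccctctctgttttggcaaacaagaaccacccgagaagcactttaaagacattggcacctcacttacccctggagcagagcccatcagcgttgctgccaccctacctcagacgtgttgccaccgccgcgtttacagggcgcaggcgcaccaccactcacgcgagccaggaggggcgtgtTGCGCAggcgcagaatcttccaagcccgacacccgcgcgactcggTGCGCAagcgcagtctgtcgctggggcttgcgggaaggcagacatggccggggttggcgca
Sdhb, chr4:140961021-140961320, plus strand: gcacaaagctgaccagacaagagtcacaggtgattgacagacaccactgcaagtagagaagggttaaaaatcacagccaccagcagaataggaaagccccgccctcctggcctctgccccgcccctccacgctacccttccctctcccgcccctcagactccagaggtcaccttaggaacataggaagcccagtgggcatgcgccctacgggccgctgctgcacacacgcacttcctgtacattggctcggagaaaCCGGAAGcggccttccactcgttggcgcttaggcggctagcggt
Uqcrfs1, chr13:30545267-30545566, minus strand: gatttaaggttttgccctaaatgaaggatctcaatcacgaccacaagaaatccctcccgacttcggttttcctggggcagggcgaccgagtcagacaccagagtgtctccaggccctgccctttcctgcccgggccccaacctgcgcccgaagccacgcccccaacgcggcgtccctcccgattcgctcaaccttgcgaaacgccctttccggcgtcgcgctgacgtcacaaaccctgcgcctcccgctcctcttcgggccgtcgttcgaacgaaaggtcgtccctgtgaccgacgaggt
The Sdha window holds 2 matches to TGCGCA, the Sdhb window 1 match to CCGGAAG, and the Uqcrfs1 window neither sequence. Of the 86 nuclear members 71 had a window, and 18 (25.4%) held TGCGCA, against 8.79% of the 27025 genes with a window and 16.5% of the 6804 other genes listed in both tables. CCGGAAG, on either strand, was in 18 members (25.4%), 9.93% of all genes and 20.7% of the other listed genes. AAGATGG or its reverse complement, a core of YY1 sites, was in 10 members (14.1%), 7.28% of all genes and 8.70% of the other listed genes. These matches describe letters in the windows and do not show binding.

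Complex III, the cytochrome bc1 complex, had 8 of 8 nuclear members above 0 in every class. Of all genes tested, 2683 of 8222 in endothelial, 1879 of 5450 in mural, 3802 of 8712 in fibroblast and 2871 of 8762 in keratin-positive cells were above 0. Among other short genes more were: in endothelial cells 84.5% from 600 to under 1000 bases and 64.5% from 1000 to under 2000. Called higher were 2 in endothelial cells, 3 in mural cells, 5 in fibroblasts and 0 in keratin-positive cells. Of all genes 9.6%, 6.94%, 14.3% and 5.46% were called higher in these classes. Uqcrfs1, the Rieske iron-sulfur protein that hands electrons towards cytochrome c, was at 77.1 CPM in the WT and 157 CPM in the knockout library in endothelial cells, a ratio of 1.03 (0.81 to 1.25). It was at 82 and 161 in mural cells (log2 0.97, 0.18 to 1.72), 47.1 and 81.9 in fibroblasts (log2 0.80, 0.47 to 1.11) and 86.8 and 128 in keratin-positive cells (log2 0.56, 0.51 to 0.61). Within fibroblast cluster 9 Uqcrfs1 was at 54.9 and 82.4, but in cluster 15 at 110.6 and 30.8. The knockout value of cluster 15 comes from 57 cells with a median of 553 UMIs, so from very few UMIs of Uqcrfs1. With clusters 9 and 15 weighted equally its fibroblast ratio was -0.55, without an interval, so that reversed direction rests on cluster 15. Uqcrb, a small subunit needed for the assembly of the complex, was at 497 CPM in the WT and 953 CPM in the knockout library in endothelial cells (log2 0.94, 0.85 to 1.03) and 393 and 574 in keratin-positive cells (log2 0.55, 0.52 to 0.57). Uqcrq, singled out after its values were seen, was at 461 and 634 in endothelial cells (log2 0.46, 0.36 to 0.56) and at 594 and 595 in keratin-positive cells (log2 0.00, -0.02 to 0.02).

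Complex IV, cytochrome c oxidase, had 4 of 14 tested nuclear members called higher and 1 called lower in endothelial cells (median 0.52). Of all genes 9.6% were called higher and 35.3% lower there. In keratin-positive cells 0 of 16 were called higher and 2 lower (median 0.30), against 5.46% and 18.8% of all genes. The member called lower in endothelial cells was Cox7a2l, which joins complexes III and IV into supercomplexes. Cox7a2l was at 265 CPM in the WT and 176 CPM in the knockout library in endothelial cells (log2 -0.59, -0.76 to -0.43), 181 and 95 in mural cells (log2 -0.93, -1.88 to -0.10), 175 and 134 in fibroblasts (log2 -0.38, -0.63 to -0.14) and 276 and 193 in keratin-positive cells (log2 -0.51, -0.54 to -0.48). Its level was lower in the knockout library in every class, and within endothelial cluster 10 its ratio was -0.37, under 1.5-fold. Cox8a, the ubiquitous subunit VIII, was at 802 and 1161 in endothelial cells (log2 0.53, 0.46 to 0.61) and 526 and 1028 in fibroblasts (log2 0.97, 0.88 to 1.06).

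The isoform pairs of complex IV differed in level between the classes. Ndufa4l2, the hypoxia-inducible relative of Ndufa4, was at 741 CPM in the WT and 1053 CPM in the knockout library in mural cells and 168 and 268 in fibroblasts. In endothelial cells Ndufa4l2 was at 9.67 and 19.3 and in keratin-positive cells at 0.469 and 0.252, so the order mural, fibroblast, endothelial, keratin positive held in both libraries, with no overlap of counting intervals. With cells thinned to 3000 UMIs each, Ndufa4l2 had a UMI in 87.2% of 78 WT and 94.4% of 18 knockout mural cells, in 25.7% of 2520 and 29.8% of 84 fibroblasts, and in 0.194% of 3089 and 0.051% of 5888 keratin-positive cells. Without thinning these shares were 86.7% and 95.2%, 37.6% and 37.2%, and 0.793% and 0.455%, at median depths of 5063 and 5102, 8583 and 6442, and 16651 and 17017 UMIs, and thinning left out 20, 3, 293, 61, 63 and 40 cells. The fibroblast level was 22.6% and 25.5% of the mural level. Mural markers used for the sorting differed in this respect. Rgs5 was at 0.0237% of its mural level in WT fibroblasts and at 0 UMIs in knockout fibroblasts, and Notch3 at 0.509% and 2.83%. Pdgfrb was at 246 and 401 CPM in fibroblasts against 1598 and 629 in mural cells, and Cspg4 at 13.6 and 61.5 against 298 and 110. The part of mural RNA in the fibroblast value was not tested. Among WT fibroblast clusters Ndufa4l2 ranged from 19.1 CPM in cluster 11 to 269 in cluster 9.

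The endothelial signal of Ndufa4l2 was low. Its ratio there was 0.99 (0.35 to 1.65), from 38 WT and 47 knockout UMIs, against -0.90 (-1.74 to -0.05) in keratin-positive cells, from 25 and 27 UMIs. The endothelial UMIs lay in 9 of 545 WT and 13 of 300 knockout cells (1.65% and 4.33%), so a few cells carried the level, and the counting interval does not cover the spread between cells. After thinning to 3000 UMIs the share of cells with a UMI was 0.8% of 500 and 2.6% of 269, at median depths before thinning of 6131 and 7042.5 UMIs. The mural marker Higd1b moved the same way in endothelial cells, from 6.87 to 16 CPM, while Rgs5 went from 64.2 to 26.2. The summed level of 9 mural markers in endothelial cells was 299.6 and 179 CPM with none at 0, and the part of mural RNA in the endothelial value was not tested. Ndufa4, the widely expressed isoform, was at 259.7 and 376 in endothelial cells (log2 0.53, 0.40 to 0.66), 287 and 325 in fibroblasts, 246 and 285 in keratin-positive cells and lowest in mural cells, at 144 and 154.

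Cox4i2, the isoform of subunit IV known from lung and pericytes, was at 517 and 497 CPM in mural cells and no more than 5.59 in any other class, whereas Cox4i1, the common isoform, ran from 539 to 804 over all classes and libraries. The mural ratios were -0.06 (-0.46 to 0.32) for Cox4i2 and -0.04 (-0.35 to 0.26) for Cox4i1. Cox6a2, known as the heart and muscle isoform, had 0 UMIs in endothelial cells of both libraries, which allows up to 3 UMIs, and was at 12.3 and 7.72 in keratin-positive cells (log2 -0.67, -0.82 to -0.52). Its common partner Cox6a1 was at 183 and 179.9 there (log2 -0.02, -0.06 to 0.01). Cox7a1, the other muscle isoform, was at 26.8 and 7.31 in mural cells from 17 and 1 UMIs, too few for the ratio to be taken, and its common partner Cox7a2 was at 401 and 609 in endothelial cells (log2 0.60, 0.50 to 0.71). Cox6b2, known from testis, stayed at or under 14.6 CPM in every class, while Cox6b1 was at 446 and 679 in endothelial cells (log2 0.61, 0.51 to 0.70).

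**Figure D4:**
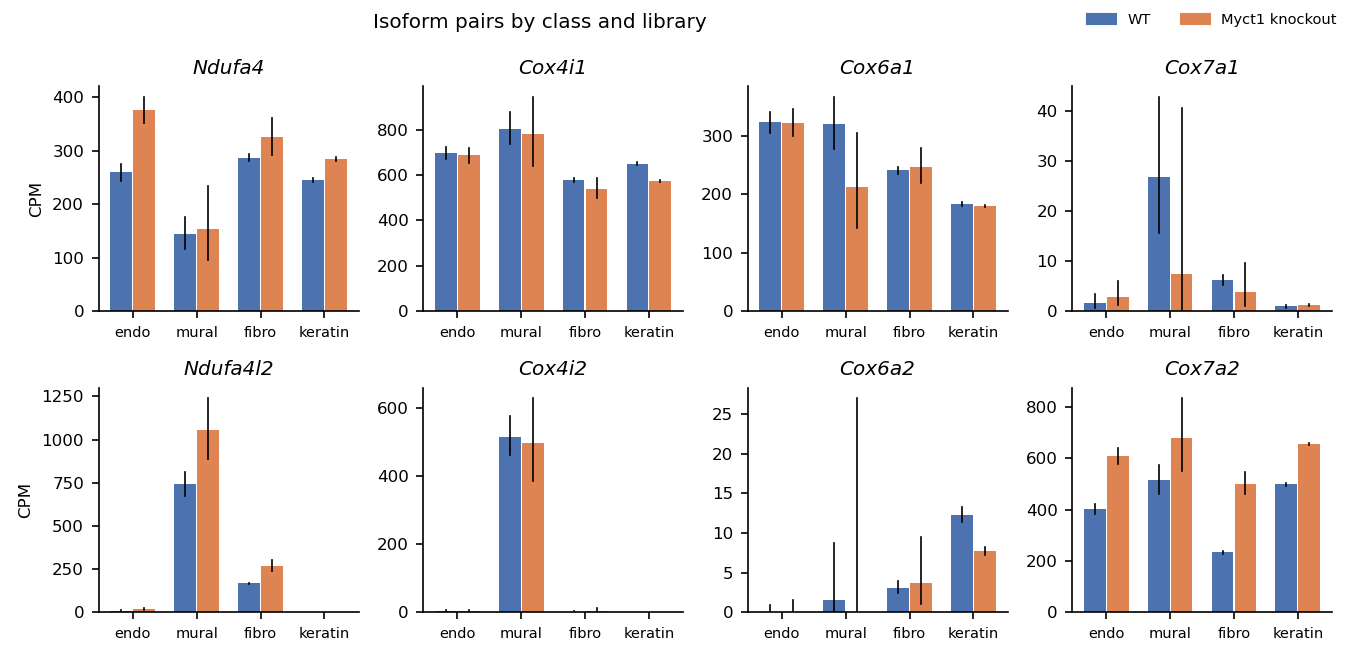
CPM (y axis, each panel with its own scale from 0) of 4 isoform pairs of complex IV in the 4 classes (x axis), WT in blue and Myct1 knockout in orange, with 95% Poisson intervals. Ndufa4l2 and Cox4i2 stand highest in mural cells, and Cox6a2 in keratin-positive cells.

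Complex V, the ATP synthase, had 9 of 15 members called higher and 0 lower in endothelial cells (median 0.60), against 9.6% and 35.3% of all genes. Relative to genes of like length 2 of the 15 were called higher there, Atp5c1 and Atp5g1. The transcript taken for Atp5g1 has 4715 bases, against 731 for Atp5g2 and 723 for Atp5g3, so its adjusted ratio of 1.32 rests on that annotated length. By the unadjusted ratios, 8 of 15 were called higher in fibroblasts (14.3% of all genes) and 3 of 15 in keratin-positive cells (5.46%). In mural cells 4 of 14 were called higher and 1 lower (6.94% and 15.8% of all genes). Subunits of the central stalk, which turns inside the enzyme, were among those called higher in endothelial cells. There Atp5c1, the gamma subunit, was at 203 CPM in the WT and 349 CPM in the knockout library (log2 0.78, 0.64 to 0.92). Atp5d, the delta subunit, was at 235 and 411 (log2 0.80, 0.67 to 0.93). In keratin-positive cells Atp5c1 was at 193 and 293 (log2 0.60, 0.56 to 0.63) and Atp5d at 333 and 478 (log2 0.52, 0.50 to 0.55). Atp5d was not called in keratin-positive or mural cells. Outside fibroblasts the catalytic head did not share these ratios: Atp5a1, the alpha subunit, was at 363 and 291 in endothelial cells (log2 -0.32, -0.45 to -0.19), 459 and 285 in mural cells (log2 -0.69, -1.21 to -0.20) and 508 and 390.1 in keratin-positive cells (log2 -0.38, -0.40 to -0.36). Atp5b, the beta subunit, was at 435 and 429 in endothelial cells (log2 -0.02, -0.13 to 0.09) and 569 and 488 in keratin-positive cells (log2 -0.22, -0.24 to -0.20). In fibroblasts Atp5b was higher in the knockout library, at 290 and 385 (log2 0.41, 0.26 to 0.55), and Atp5a1 was at 351 and 331 (log2 -0.08, -0.24 to 0.07). Under TMM scaling the endothelial ratios of Atp5a1 and Atp5b were 0.04 and 0.34, and those in keratin-positive cells -0.14 and 0.02.

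Atp5g1, Atp5g2 and Atp5g3 encode the same mature subunit of the membrane ring and differed in their ratios. In endothelial cells Atp5g1 was at 258 and 409 (log2 0.67, 0.54 to 0.79), Atp5g2 at 18.1 and 33.6 (log2 0.89, 0.42 to 1.37) and Atp5g3 at 248 and 253 (log2 0.03, -0.12 to 0.18). In fibroblasts Atp5g1 was at 178 and 402 (log2 1.18, 1.03 to 1.32) and Atp5g3 at 285 and 277 (log2 -0.04, -0.22 to 0.12). In keratin-positive cells the ratios were 0.64 (0.61 to 0.67), 0.60 (0.51 to 0.70) and -0.12 (-0.16 to -0.09). Thus Atp5g1 was higher in the knockout library in these classes and the interval of Atp5g3 did not reach 1.5-fold in any of them. The labels do not say how reads of near-identical copies of these genes were counted. Of the 6 assembly factors, 1 was called higher in endothelial cells, against 9.6% of all genes. This was Ndufaf2, which serves the assembly of complex I, at 30.8 and 50.8 (log2 0.72, 0.35 to 1.10). Ndufaf2 was at 37.8 and 58.3 in keratin-positive cells (log2 0.62, 0.55 to 0.70).

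The 13 mt- members did not share the shift of the nuclear members. Their median ratio was -0.21 in endothelial, 0.02 in mural, 0.04 in fibroblast and -0.10 in keratin-positive cells, and TMM scaling turned the endothelial value to 0.14 and the last to 0.14. None was called in endothelial cells (9.6% of all genes higher and 35.3% lower) or in keratin-positive cells (5.46% and 18.8%). In mural cells 2 were called higher and 1 lower (6.94% and 15.8% of all genes). In fibroblasts 2 were also called higher and 1 lower (14.3% and 17.6% of all genes), so the higher calls there lay near that share. Those in mural cells were mt-Cytb (log2 0.60, 0.49 to 0.72) and mt-Nd4l (log2 0.75, 0.47 to 1.02), with mt-Nd5 lower (log2 -0.66, -1.13 to -0.21). Those in fibroblasts were mt-Cytb (log2 0.86, 0.81 to 0.91) and mt-Atp6 (log2 0.64, 0.61 to 0.68), with mt-Nd6 lower (log2 -0.88, -1.59 to -0.24). Since cells were kept only up to 10% of mt- UMIs, these levels depend on that limit: 27.5% of WT and 16.6% of knockout barcodes that pass the endothelial gate lay above it, and without the limit the endothelial median was -0.69.

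The make-up of the mt- UMIs differed between the libraries in the same direction in each class for mt-Co1, mt-Co2, mt-Co3, mt-Atp6, mt-Cytb, mt-Nd4l and mt-Nd5. The intervals of these left out 0 in each class. Shares of mt-Nd1, mt-Nd4 and mt-Nd6 were also lower in the knockout library in each class. Of these, the mural interval of mt-Nd1 and the endothelial and mural intervals of mt-Nd6 included 0. In endothelial cells mt-Co1, the catalytic subunit of complex IV, held 28.7% of mt- UMIs in the WT and 21.8% in the knockout library (log2 ratio of the share -0.39). Its share was 25.9% and 19.2% in mural cells, 27% and 21.3% in fibroblasts and 26.6% and 18.9% in keratin-positive cells. mt-Cytb, the core of complex III, was higher in the knockout library in each class, at 6.99% and 10.3% in endothelial cells, 8.27% and 12.4% in mural cells, 6.65% and 10.7% in fibroblasts and 8.53% and 11.9% in keratin-positive cells. mt-Atp6, a subunit of the proton channel of complex V, was at 19.5% and 24.6% in endothelial cells and at 17.5% and 21.3% in keratin-positive cells. mt-Co2, the copper-bearing subunit that takes electrons from cytochrome c, was at 13.8% and 15.7% in endothelial cells, and mt-Co3 at 16.5% and 14.6%. Thus 1 of the 3 mt- subunits of complex IV was higher and the other two lower in the knockout library.

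The complex I subunits of the mitochondrial genome took small shares of mt- UMIs. In endothelial cells mt-Nd1 was at 3.63% and 2.98%, mt-Nd2 at 1.67% and 1.59%, mt-Nd3 at 1.13% and 1.1% and mt-Nd4 at 4.3% and 3.71%. There mt-Nd4l was at 1.33% and 1.49%, mt-Nd5 at 0.904% and 0.737% and mt-Nd6, the only member read from the light strand, at 0.101% and 0.1%. Genes that lie on the same messenger RNA did not move as 1. mt-Atp8 and mt-Atp6, whose reading frames overlap by 43 bases on 1 transcript, had CPM ratios of -0.38 (-0.48 to -0.29) and 0.19 (0.16 to 0.21) in endothelial cells and -0.34 (-0.36 to -0.32) and 0.20 (0.20 to 0.21) in keratin-positive cells. mt-Nd4l and mt-Nd4, which overlap by 7 bases, had ratios of 0.01 (-0.08 to 0.10) and -0.36 (-0.42 to -0.31) in endothelial cells and 0.26 (0.25 to 0.28) and -0.11 (-0.12 to -0.10) in keratin-positive cells. The 3′ method counts reads near transcript ends, mt-Nd5 and mt-Nd6 overlap by 14 bases on opposite strands, and the labels do not say how reads in overlaps were assigned.

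Barcodes with under 200 detected genes, which were no cells of any class, also differed between the libraries. Of their UMIs 92.2% in the WT and 95.1% in the knockout library were mt-. In them mt-Co1 was at 29.7% and 20.5% of mt- UMIs, mt-Atp6 at 14.8% and 23.5% and mt-Cytb at 7.99% and 9.99%. The direction in these barcodes was that of the 4 classes for each of these 3 genes. By contrast mt-Atp8 had a log2 ratio of the share of 0.11 in them and of -0.23 in endothelial cells. For mt-Nd6 the ratio in these barcodes was 0.10, and in endothelial cells it had no clear direction (-0.01, -0.36 to 0.34). The cells these barcodes came from are not known.

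**Figure D5:**
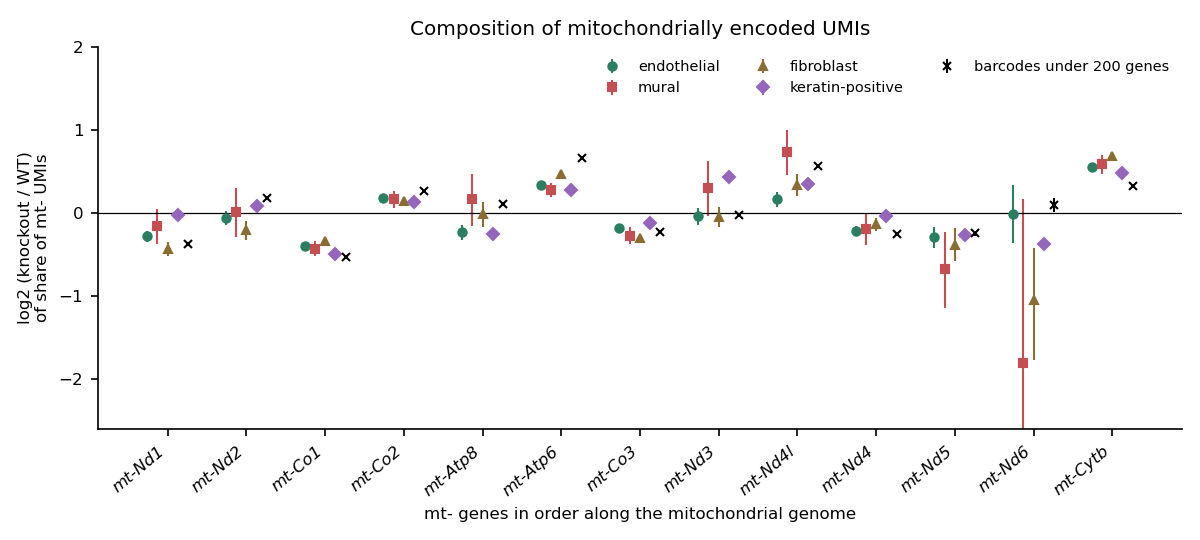
Log2 ratio of each mt- gene's share of mt- UMIs, knockout over WT (y axis), in the 4 classes and in barcodes with under 200 genes, with 95% counting intervals. Genes are in their order along the mitochondrial genome. mt-Co1 lies below 0 and mt-Co2, mt-Atp6 and mt-Cytb above 0 in all 5 sets, and the mural interval of mt-Nd6 runs past the lower edge.

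Subtracting the ratio in keratin-positive cells, which lie outside the aim of Cdh5-cre, left smaller differences in endothelial cells. The median of 82 nuclear members was 0.13, with 29 intervals above and 7 below 0, against -0.11 over 8038 genes, of which 1094 lay above and 1766 below. For the 13 mt- members it was -0.09, with 1 above and 6 below. Ndufab1 stood highest among the genes named above with over 100 UMIs, at 0.62 (0.45 to 0.78), followed by Uqcrfs1 at 0.47 (0.25 to 0.69), Uqcrq at 0.46 (0.36 to 0.56) and Uqcrb at 0.39 (0.30 to 0.48). Ndufc2 at -0.68 (-0.80 to -0.55) and Sdha at -0.66 (-0.94 to -0.38) stood lowest, and mt-Nd3 was at -0.54 (-0.65 to -0.44). By contrast Sdhb at 0.14 (-0.08 to 0.37), Ndufa8 at -0.04 (-0.18 to 0.11), Atp5g1 at 0.02 (-0.11 to 0.15) and Cox7a2l at -0.08 (-0.24 to 0.09) had intervals that included 0. Intervals of these differences are a normal approximation from 4 counts, and all classes come from the same pair of libraries. The keratin-positive ratio that was subtracted also carries the uneven clusters of that class given above.

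Other mitochondrial genes were described from lists of known function. For each count below, 9.6% of all genes were called higher and 35.3% lower in endothelial cells, and 5.46% and 18.8% in keratin-positive cells. Mitochondrial ribosomal proteins, which translate the mt- messages, had 28 of 74 called higher and 0 lower in endothelial cells (median 0.46) and 13 and 0 in keratin-positive cells (median 0.38). Of 15 genes for cytochrome c, carriers and channels, 6 were called higher and 0 lower in endothelial cells (median 0.50). They included Higd1a, a hypoxia-induced factor that binds complexes III and IV (119 against 320.4, log2 1.43, 1.26 to 1.60), and Slc25a4, an ADP and ATP carrier (193 against 331, log2 0.78, 0.63 to 0.92). The 13 genes of the citric acid cycle had 2 called higher and 0 lower (median -0.05), and 22 assembly factors with other names had 3 higher and 1 lower (median 0.25). Of 13 genes that copy or translate the mitochondrial genome, 3 were called higher and 2 lower (median -0.28). The lower ones were Peo1 (8.91 against 3.28, log2 -1.44, -2.76 to -0.31) and Gfm1 (26.2 against 11.9, log2 -1.14, -1.79 to -0.54). Among the higher ones was Slirp, which stabilises mt- messages (69.5 against 136, log2 0.96, 0.73 to 1.20).

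Of 10 regulators of mitochondrial biogenesis 0 were called higher and 5 lower in endothelial cells, counts that are near those shares over all genes (median -0.63, against -0.37 over all genes). Pprc1, a coactivator of the PGC-1 family, had the lowest ratio of the list (32.8 against 13.5, log2 -1.28, -1.88 to -0.72). In keratin-positive cells 0 were called higher and 3 lower, with Gabpa, the Ets factor of the motif above, among them (27 against 17.2, log2 -0.65, -0.75 to -0.55). Of 11 genes of mitophagy and the hypoxia response, 2 were called higher and 3 lower in endothelial cells, also near those shares: Bnip3, a mitophagy receptor (20.4 against 58.6, log2 1.52, 1.12 to 1.94), and Egln3, an oxygen-sensing hydroxylase (30.3 against 61.5, log2 1.02, 0.66 to 1.38), were the higher ones, and Epas1, a hypoxia-inducible factor abundant in endothelium, was among the lower ones (630.3 against 244, log2 -1.37, -1.50 to -1.24). The proliferation list, which moved with the members' share, had 14 of 16 called higher in endothelial cells (median 1.29) and 3 of 16 in keratin-positive cells (median 0.19), and its part in the members' ratios beyond the values without cycling cells was not tested.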

How the data were processed

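Per the labels' protocols, tumours of 4 mice per genotype were pooled, dissociated and run on version 1 10x Genomics Chromium Single-cell 3′ chemistry, and the submitters' processing notes name Cell Ranger 2.1.1 and the build mm10. The authors deposited 1 table of raw UMI counts per library, with genes in rows and barcodes in columns; every listed gene has at least 4 UMIs in some barcode, a filter seen in the values. The Sum column and Total row were dropped, and 2 symbols that occur in more than 1 row were summed. Counts over the 9127 symbols listed in both tables hold 99.3% and 99.7% of UMIs.

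Cells needed at least 200 detected genes, at most 10% mt- UMIs and a simulated-doublet score of at most 0.3. The endothelial, mural and fibroblast gates needed a UMI in at least 3 markers of the class and more than of the other two, at most 2 UMIs of Krt8 plus Krt18 and fewer than 3 immune markers; the keratin gate needed at least 2 UMIs of each of Krt8 and Krt18. The expected doublet share was 0.1, and 262 WT and 377 knockout barcodes were left out as doublets. Counts were summed per class and library with Python 3.11.15, numpy 2.4.6 and scipy 1.17.1. Ratios carry exact conditional binomial intervals, levels exact Poisson and shares exact Clopper-Pearson intervals at 95%, for counting error only. Coverage was tested for the ratio intervals alone, on simulated Poisson counts, which hold no spread between cells. Differences between classes carry a normal approximation from 4 counts. TMM factors came from edgeR 4.0.16. Clusters came from leidenalg 0.10.2 on 40 components of 2000 variable genes, both libraries together. Lengths are of the longest APPRIS principal transcript in GENCODE vM21 (before, the longest basic transcript was used, and the definition was changed after the first length values were seen) and were found for 86 of 86 nuclear members and 8771 of 9127 genes. Length bins, the printed promoter windows and the weighting of clusters were chosen after values were seen.

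Named genes are, in endothelial and in keratin-positive cells, the 6 nuclear members furthest up and the 6 furthest down by the bound of the interval closest to 0, every mt- member, fixed isoform groups, members called in opposite directions, and up to 3 genes of each other list. The values of 1 nuclear member of that selection are not reported here, though counts and medians include it. The members and lists were chosen with earlier results of these data known.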

Additional observations from a re-analysis of the deposited data

Results flagged for a closer look

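Ndufa4l2, Ndufc2 and mt-Nd3 had endothelial and keratin-positive intervals on opposite sides of 0; the difference between the classes was not tested, since each class has 1 library per genotype. The endothelial log2 ratio minus that in keratin-positive cells was 1.89 for Ndufa4l2, from 38 and 47 endothelial and 25 and 27 keratin-positive UMIs. It was -0.68 for Ndufc2, which was at 421 and 325 CPM in endothelial cells and 164 and 202 in keratin-positive cells. It was -0.54 for mt-Nd3, at 554 and 487 against 690.0 and 883 CPM. Over the alternatives the endothelial ratio of Ndufc2 ran from -0.78 to 0.00 and that of mt-Nd3 from -0.69 to 0.19, and the keratin-positive ratio of mt-Nd3 from 0.17 to 0.61.

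Barcodes with under 200 genes, which entered no comparison of classes, also differed between libraries. In them nuclear members held 2.23% of UMIs other than mt- in the knockout library and 1.11% in the WT library. There mt-Atp6 held 23.5% of mt- UMIs in the knockout and 14.8% in the WT library.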

How the results depend on the processing

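No paired analysis was possible because each genotype has 1 library and no replicate numbers. The median log2 ratio of nuclear members stayed above 0 in every class under each alternative run, although the members' intervals had a median lower bound below 0 in mural cells as reported, in every class relative to genes of like length, in endothelial relative to keratin-positive cells and in fibroblasts with clusters weighted equally. The values below are those that moved beyond the members' median interval or, for counts of calls, by over 1.5 times, and the cause was not tested. Under the alternatives the share of all genes called was not counted.

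Under TMM the nuclear medians were 0.80 in endothelial and 0.55 in keratin-positive cells. The counts of higher and lower calls were then 57 and 1 in endothelial (22 and 3 in the values reported), 38 and 0 in mural (19 and 4) and 34 and 0 in keratin-positive cells (6 and 2). The mt- medians turned to 0.14 in endothelial and 0.14 in keratin-positive cells and were 0.32 in mural cells. With the median of all genes set to 0, the nuclear medians were 0.82 in endothelial and 0.56 in keratin-positive cells. The counts were 58 and 1, 49 and 0, and 35 and 0, and the mt- medians 0.16, 0.44 (mural), 0.15 (fibroblast) and 0.15. Relative to genes of like length the nuclear medians were 0.10 in endothelial cells, 0.22 in fibroblasts and 0.033 in keratin-positive cells. The higher calls were 10, 6 (mural), 11 and 3, with 3 lower in fibroblasts (0 in the values reported), and the mt- medians -0.51, -0.34, -0.31 and -0.36 in the order endothelial, mural, fibroblast and keratin. Relative to keratin-positive cells the endothelial medians were 0.13 (nuclear, 2 higher) and -0.093 (mt-).

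With mt- limits of 5%, 20% and none, the keratin-positive mt- median was 0.025, -0.20 and -0.25 and the lower mural calls 1, 2 and 2. The 5% limit also left 1 lower endothelial call. The 20% limit gave a fibroblast mt- median of -0.22. No limit gave mt- medians of -0.69 (endothelial), -0.44 (mural) and -0.48 (fibroblast) and 31 higher mural calls; barcodes above 10% carry no doublet score. The fibroblast mt- median was -0.0807 under the stricter gate, 0.13 under the looser gate, -0.0848 with clusters in place of gates, -0.12 with cells weighted equally and 0.20 without cycling cells. Lower fibroblast calls were 1, 1, 1 and 2 in the first 4 of these. The looser gate gave 1 lower endothelial and 9 higher mural calls. Clusters in place of gates gave 7 higher and 2 lower mural calls and 1 lower keratin-positive call. Equal weights of cells gave a keratin-positive mt- median of -0.071. Thinning gave 10 higher and 1 lower mural calls. Without cycling cells there were 2 lower mural calls, and in keratin-positive cells a nuclear median of 0.34 with 13 higher calls and 1 lower. At least 100 UMIs left 1 lower keratin-positive call. At 2-fold the higher and lower calls were 1 and 1 in endothelial, 1 and 1 in mural, 8 and 0 in fibroblast and 0 and 0 in keratin-positive cells.

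Weighting shared clusters of at least 50 cells equally was chosen after seeing the data. It gave nuclear medians of 0.14 in fibroblasts (14 higher, 4 lower) and 0.14 in keratin-positive cells (1 higher, 1 lower), mt- medians of -0.28 and -0.077, and no value for mural cells. Of 57 single-gene ratios that were called among the named genes, 3 took the other sign under an alternative: Sdhb in mural cells when thinned (-0.022), Ndufa8 in endothelial relative to keratin-positive cells (-0.035) and Uqcrfs1 in fibroblasts with clusters weighted equally (-0.55). Of 115 named ratios that were not called, 72 took the other sign under at least 1 alternative, among them Sdha in fibroblasts (up to 0.13), Atp5g2 in fibroblasts (down to -1.23), Ndufa4 in keratin-positive cells (down to -0.05) and Atp5a1 in endothelial cells (up to 0.064), so their directions depend on these settings. Mural values rest on 21 knockout cells.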

Other observations

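The number of cells near the gates differed between classes. In the keratin gate 392 WT and 583 knockout cells lay at the limit of 2 UMIs of either keratin, against 5 and 7 endothelial cells at the limit of 3 markers. Barcodes outside the kept cells held a large part of all mt- UMIs: those with under 200 genes held 27.8% in the WT and 29.6% in the knockout library, and those above 10% mt- UMIs held 26.9% and 7.85%.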
